A study of Bos taurus with 16 samples.

Results

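The genes described are 14 families of transcription factors, taken by symbol from the annotation of a custom 2-colour cDNA array of cattle. The symbols begin with ZNF, ZBTB, KLF, SOX, HOX, PAX, GATA, FOX, STAT, TFAP2, NR, HNF, SMAD or TEAD, and GATA3 and TFAP2C were set apart. They match 82 spotted cDNA clones, called features here, which are 62 genes among the 4452 genes and 5693 features with a listed gene. Of these, 79 features of 61 genes had a value in every RNA and were tested, among 5537 tested features of 4360 genes. HOX, PAX and HNF have 0 features on the list, so that 11 families remain. The largest are ZNF with 34 tested features and KLF with 10, and STAT and TFAP2 have 1 each. A symbol rule takes names and not functions. NR2C2AP is a partner protein of a nuclear receptor and no receptor, and ZBTB8OS is archease, a helper of the tRNA splicing ligase. Another 2 ZNF features are listed under several gene IDs and are counted but not named.

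Zinc finger proteins of the ZNF family bind DNA through fingers that each hold a zinc ion, and many carry a KRAB domain that recruits corepressors; some act on RNA, ribosomes or the spindle instead. KLF, GATA, SOX, FOX, TFAP2 and TEAD factors set and keep cell identity, while STAT and SMAD proteins carry cytokine and TGF-beta or BMP signals to the nucleus and nuclear receptors answer steroid and other small lipophilic ligands. Such regulators are usually transcribed at low levels, and in the kidney they are known for roles in nephron formation, in the collecting duct, in vessels and in responses to injury.

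The study hybridised RNA of cattle kidney against a common reference RNA. Total RNA without amplification is round 0, and RNA linearly amplified 1, 2 or 3 times makes up rounds 1 to 3. Each round has 2 RNAs, replicates 1 and K, which gives 8 kidney RNAs, each measured on 2 arrays of opposite dye. The reference had itself been through 2 rounds of amplification in every array, per the labels, so that round 0 alone sets unamplified kidney RNA against amplified reference. The sources used here do not give breed, age or the makeup of the reference, nor whether replicates 1 and K come from separate animals; p-values therefore measure the spread between these RNAs, which may be technical. From the title, the question is whether linear amplification, meant for single embryos, keeps the relative levels of transcripts.

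Across the 16 arrays, between 83.9% and 95.0% of 16896 spots had a ratio, and 134 to 159 of the 164 spots of these genes did. Values are log2 of kidney over reference with the median listed feature of each array set to 0. The orientation is likely and not stated by the submitters: with Cy5 over Cy3, the median of the 17 kidney marker features (ENPEP, AQP1, AQP3 and others) lay 2.63 to 3.35 above 0 on the 4 arrays of round 0, in both dye orientations. Were it the other way, every sign below would turn. Of those marker features 14, 13, 12 and 12 were called above the reference at rounds 0 to 3, which the choice of orientation partly fixes. Called below it were 0, 0, 1 and 0. Against round 0, 0, 1 and 1 of the kidney marker features were called higher at rounds 1, 2 and 3, and 3, 3 and 3 lower. Blood and immune markers (8 features) had 1, 0 and 2 features called higher than round 0 at rounds 1, 2 and 3 and 0 called lower. Stroma markers (16 features) had 2, 3 and 2 higher against 3, 3 and 2 lower. Over all tested features 5.4%, 4.39% and 4.57% were called higher and 7.87%, 6.79% and 7.04% lower. The part of these markers in the results below was not tested. Round 0 arrays were deposited with 3 decimals in 100% of cells and amplified ones with fewer in some cells (83.2% at the lowest), so that this difference in handling and amplification cannot be told apart. In bulk RNA, fewer cells of a type and less RNA per cell cannot be told apart either.

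Against the reference, a minority of these features was called at each round. At round 0, 20 of 79 were called by limma at an adjusted p under 0.05 (14 above, 6 below), which is 25.3% against 38.7% of all tested features (19.6% above, 19% below). At round 1, 21 were called (12 above, 9 below), or 26.6% against 37.8% (16.9% and 20.9%). At round 2, 14 were called (6 above, 8 below), or 17.7% against 35.2% (16.5% and 18.6%). At round 3, 21 were called (9 above, 12 below), or 26.6% against 35.1% (16.7% and 18.4%). Median ratios of the 79 were 0.25, 0.34, 0.054 and 0.066 at rounds 0 to 3. These counts and splits move with the scaling. Without centring of the arrays the calls were 30 above and 0 below at round 0, 4 and 8 at round 1, 13 and 3 at round 2, and 10 and 5 at round 3, where 35.7%, 26.5%, 31.2% and 22.1% of all features were called. The difference in share between these features and the array was not tested.

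**Figure D1:**
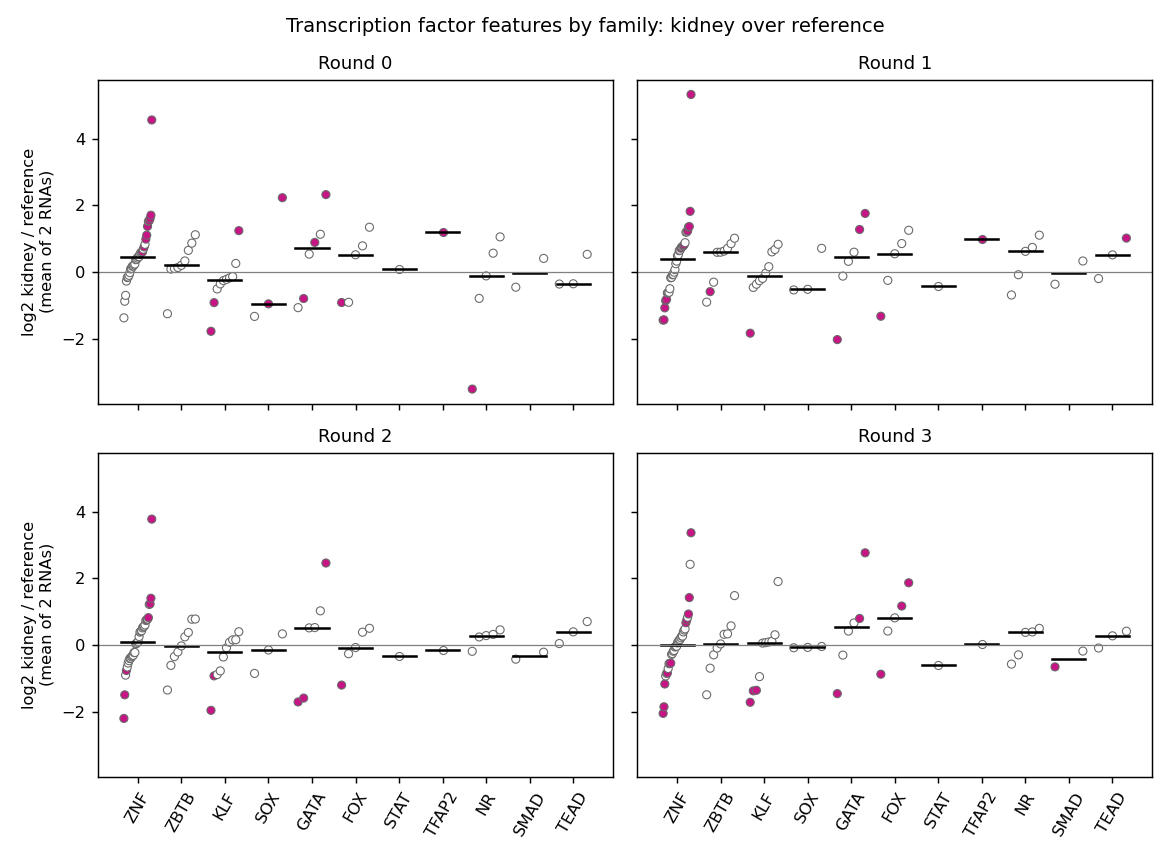
Mean log2 ratio of kidney over reference (vertical axis, 2 RNAs per round) for the 79 tested features by family (horizontal axis), with 1 panel per round. Filled points were called against the reference by limma at adjusted p under 0.05, and bars are family medians; ZNF350 is the highest point of every panel, and most other points lie within 2 of 0.

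Only 6 of the 79 features were called on the same side in all 4 rounds, 3 above and 3 below; over all tested features, 6.63% were above and 7.89% below throughout. ZNF350, a KRAB zinc finger repressor known as a partner of BRCA1, was farthest above. Its ratios in replicates 1 and K were 4.70 and 4.42 at round 0, 5.38 and 5.26 at round 1, 3.95 and 3.60 at round 2, and 3.67 and 3.07 at round 3. All 8 RNAs were thus at least 8.38-fold above the reference, the RNAs of round 1 were the highest, and those of round 3 did not overlap with round 0. GATA2, a factor of blood progenitors, endothelium and trophoblast, came next through its clone 1, with 2.36 and 2.29, 1.64 and 1.88, 2.44 and 2.48, and 2.93 and 2.61. Round 1 was its lowest round in both dye orientations. Round 3 was its highest in the mean and with kidney in Cy3 (3.23). With kidney in Cy5, round 3 had 2.30, below the 2.40 of rounds 0 and 2. The zinc finger gene ZNF527 gave 1.58 and 1.63, 1.20 and 1.50, 1.23 and 1.25, and 0.75 and 0.77, so that both round 3 RNAs lay below the other 6.

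KLF4, a factor of epithelial differentiation and of induced pluripotency, was farthest below. Its ratios were -0.82 and -1.0 at round 0, -1.86 and -1.79 at round 1, -1.73 and -2.16 at round 2, and -1.70 and -1.71 at round 3. All 6 amplified RNAs lay below both RNAs of round 0. Clone 3 of GATA2 was called below throughout, at means of -0.79, -2.02, -1.70 and -1.45. Clone 1 of FOXK2, a forkhead factor that binds corepressors, had means of -0.91, -1.32, -1.19 and -0.86. Without centring of the arrays, KLF4, GATA2 clone 3 and FOXK2 clone 1 lost their calls at round 0. Their values were then -0.23, -0.11 and -0.23 (adjusted p = 0.566, 0.831 and 0.624). FOXK2 clone 1 also lost its calls at rounds 2 and 3 without centring (adjusted p = 0.189 and 0.273). The calls of ZNF350 and of GATA2 clone 1 held at every round when any 1 of the 8 RNAs was left out. That of KLF4 at round 0 was lost without round 0 replicate K (highest adjusted p = 0.0753), and that of GATA2 clone 3 at round 0 without either RNA of that round (0.181). FOXK2 clone 1 lost its call at round 0 without either RNA of round 0 (0.106), at round 2 without replicate K of round 2 (0.0659) and at round 3 without either RNA of round 3 (0.111). ZNF527 lost its call at round 3 without either RNA of round 3. The call was also lost with kidney in Cy5 only, where the mean was 0.25 (adjusted p = 0.405). With kidney in Cy3 it was 1.28.

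**Figure D2:**
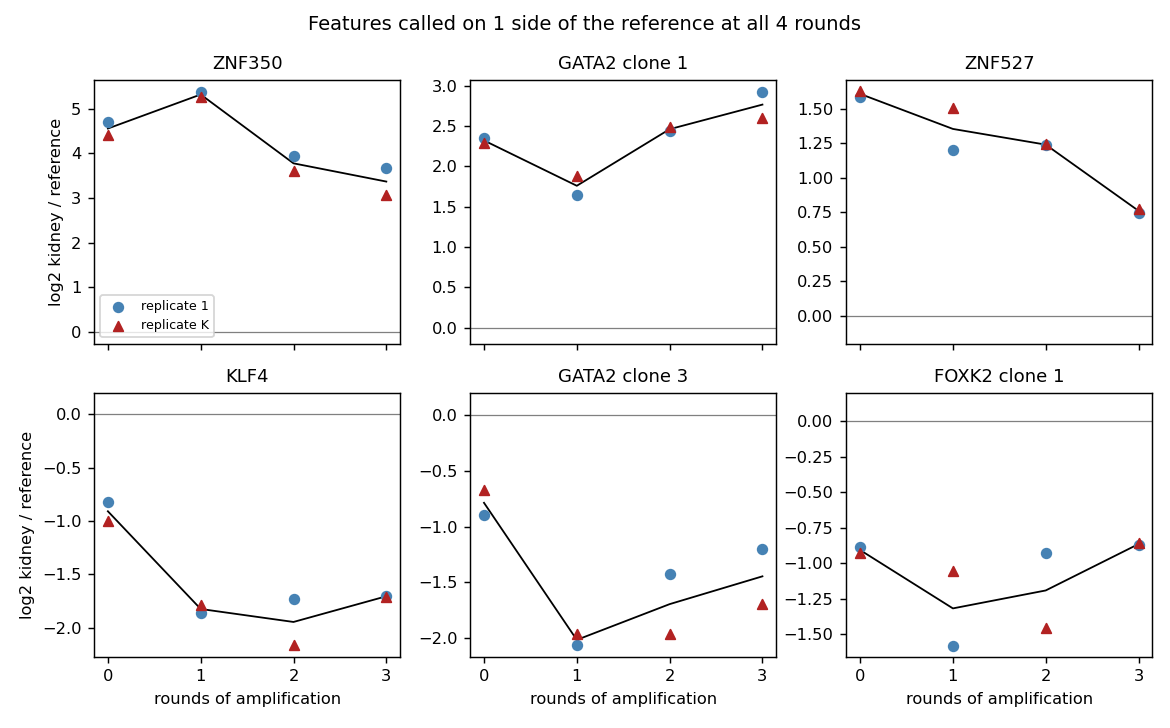
Log2 ratio of kidney over reference (vertical axis, scaled per panel) against rounds of amplification for the 6 features that were called throughout, 3 above and 3 below; circles are replicate 1, triangles replicate K and lines the means. ZNF350 runs from 4.56 at round 0 to 3.37 at round 3, and KLF4 from -0.91 to -1.71.

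Amplified kidney RNA differed from unamplified RNA in about the share of these features seen over the array. At round 1, 10 of 79 were called against round 0 (2 higher, 8 lower), which is 12.7% against 13.3% of all tested features (5.4% higher, 7.87% lower). At round 2, 8 were called (1 higher, 7 lower), or 10.1% against 11.2% (4.39% and 6.79%). At round 3, 11 were called (1 higher, 10 lower), or 13.9% against 11.6% (4.57% and 7.04%). The F test over rounds called 8 features, or 10.1%, against 7.59%. Median differences of the 79 were -0.054, -0.37 and -0.22 where those over all features lay between -0.030 and 0.012. Without centring, the median of all features itself shifted by -1.04, -0.080 and -0.34 and the calls became 0 higher and 29 lower, 0 and 0, and 0 and 3. Leaving out 1 RNA left 1 to 6 calls at round 1 (1 without round 1 replicate K), 0 to 9 at round 2 (0 without either RNA of that round) and 1 to 9 at round 3 (1 without round 3 replicate 1). These 29 called differences lay in 16 features, and 1 of them stayed called under all 8 omissions, that of a feature under several gene IDs at round 3. Among partner genes described below, the differences of LIFR and HSP90AA1 from round 0 at round 1 stayed called under all 8. So did those of FOSB at rounds 1, 2 and 3 and of HES1 at rounds 1 and 3. The other called differences of these partner genes from round 0 did not. Called at all 3 rounds were 4 features lower than round 0 (5.06%, beside 3.58% of all features) and 1 higher (1.27%, beside 2.06%).

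Amplified and unamplified RNA did not overlap at all in 23 features. In 18 of 79 features (22.8%) all 6 amplified RNAs lay below both RNAs of round 0, beside 20.5% of all tested features. In 5 (6.33%) they all lay above, beside 15.3%. Those 5 were KLF6 clone 2, TEAD3, TEAD4, GATA6 clone 2 and ZNF414 clone 1, and only the last passed the test at all 3 rounds. These orders are those of means over the available dye orientations. For TEAD4, round 1 lay below round 0 with kidney in Cy3.

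**Figure D3:**
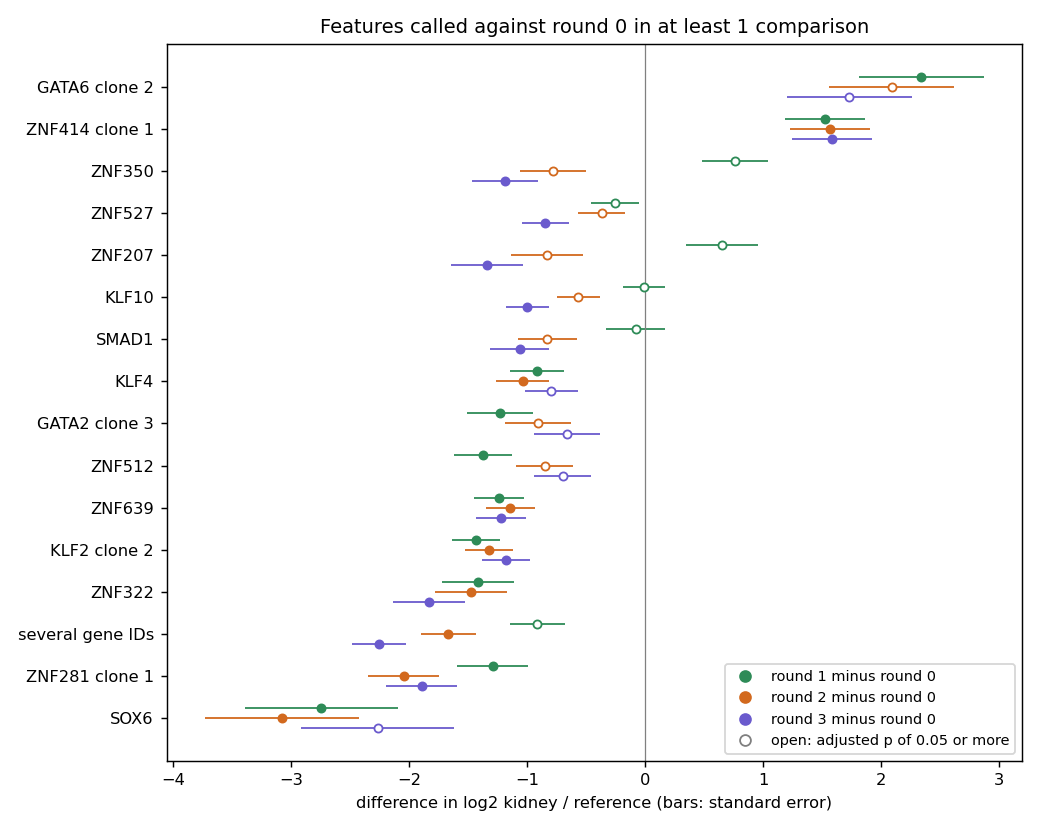
Difference in log2 kidney over reference from round 0 (horizontal axis, bars are standard errors) for the 16 features called in at least 1 of the 3 comparisons, with filled points called by limma at adjusted p under 0.05. GATA6 clone 2 and ZNF414 clone 1 lie to the right of 0 at every round, ZNF350 and ZNF207 cross 0 after round 1, and SOX6 lies farthest to the left.

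In the ZNF family 5, 5 and 8 of 34 features were called against round 0 at rounds 1, 2 and 3, of which 1 was higher each time; that is 14.7%, 14.7% and 23.5% beside 13.3%, 11.2% and 11.6% of all tested features. The family median was 0.44, 0.41, 0.10 and 0.022 at rounds 0 to 3, with median differences from round 0 of -0.27, -0.52 and -0.65 (-1.29, -0.62 and -1.01 without centring). ZNF281, a zinc finger factor of stem cells and of epithelial to mesenchymal change, had ratios in its clone 1 of 0.09 and -0.38 at round 0, -1.47 and -1.40 at round 1, -1.86 and -2.51 at round 2, and -1.89 and -2.19 at round 3. In the mean of both orientations, both RNAs of round 0 lay near the reference and all 6 amplified ones below it. Round 0 had a mean of 0.34 with kidney in Cy5 and -0.63 with kidney in Cy3, and round 1 had -1.50 and -1.36. The differences from round 0 were -1.29 ± 0.30 (SE, n = 2 per round, adjusted p = 0.0421), -2.04 ± 0.30 (0.0154) and -1.89 ± 0.30 (0.0186). ZNF322 gave 0.14 and -0.16, then -1.69 and -1.17, -1.32 and -1.64, and -2.11 and -1.57. It was lower than round 0 by -1.41, -1.47 and -1.83 (adjusted p = 0.0351, 0.0339 and 0.0209).

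ZNF639 stood at 0.56 and 0.21 at round 0 and between -0.75 and -0.90 in the 6 amplified RNAs, a step of -1.24, -1.14 and -1.22 ± 0.21 (adjusted p = 0.0199, 0.0254 and 0.0225). It crossed from above to below the reference with the first round and then stayed level. ZNF512 went from 1.25 and 1.50 to 0.00 in both RNAs of round 1, then 0.34 and 0.70, and 0.49 and 0.86. Only round 1 passed the test (-1.37 ± 0.24, adjusted p = 0.0222, with 0.0725 and 0.109 at rounds 2 and 3). The values of 0.00 average opposite dye orientations. They were 0.24 and 0.82 with kidney in Cy5 and -0.25 and -0.81 with kidney in Cy3. From the Cy5 orientation only, the difference at round 1 was -0.73. One feature under several gene IDs had 1.80 and 1.61 at round 0, 0.69 and 0.90 at round 1, 0.19 and -0.11 at round 2, and -0.39 and -0.70 at round 3. It showed the smallest adjusted p of all these features, 0.00775 for a difference of -2.25 ± 0.23 at round 3, and was called above the reference at round 0 and below it at round 3.

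ZNF207 (BuGZ), which binds microtubules and loads BUB3 in mitosis, had 0.09 and 0.27 at round 0, 0.87 and 0.79 at round 1, -0.62 and -0.69 at round 2, and -1.58 and -0.73 at round 3. Round 1 was above round 0 and rounds 2 and 3 below it, without overlap. Only round 3 passed (-1.34 ± 0.30, adjusted p = 0.041). ZNF350, described above, was 1.19 ± 0.28 lower at round 3 than at round 0 by log2 ratio (adjusted p = 0.044), and ZNF527 0.84 ± 0.20 lower (0.0453). The round 3 calls of ZNF207, ZNF350 and ZNF527 were kept in 5 of 20, 3 of 19 and 7 of 20 alternatives. With kidney in Cy3 only, the difference of ZNF527 was -0.40. The single ZNF feature called higher was ZNF414 clone 1. It had -0.13 and -0.18 at round 0 and 1.67 and 1.07, 1.01 and 1.81, and 1.29 and 1.56 at rounds 1 to 3, an increase of 1.52, 1.57 and 1.59 ± 0.34 (adjusted p = 0.0384, 0.0381 and 0.0362).

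Other ZNF genes sat on 1 side of the reference in part of the rounds. ZNF34 was called above at rounds 1, 2 and 3 (0.72, 0.83 and 0.94) and had 0.43 at round 0 with no call, and none of its differences from round 0 passed (adjusted p = 0.257 to 0.5). ZNF143, an activator that binds many promoters, was called above at round 0 alone (0.61, then -0.17, 0.11 and 0.23). ZNF326, which couples splicing to transcript elongation, had 0.76 at round 0 and 0.078, -0.22 and -0.18 after it, with adjusted p = 0.123, 0.0571 and 0.0615 against round 0. ZNF410, a zinc finger activator of CHD4, was called below at round 1 alone, with -1.74 and -0.39 in its RNAs. Of the genes known for work outside transcription, ZNF598 (a ubiquitin ligase of stalled ribosomes) had -0.69, -0.60, -0.40 and -0.84, and ZNF622 (a ribosome assembly factor) -0.090, -0.62, -0.89 and -0.69. Neither was called against the reference or round 0.

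The 9 ZBTB features, from genes that join zinc fingers to a BTB domain for dimers and corepressors, gave 0 calls against round 0 in all 3 comparisons. Over all tested features the share was 13.3%, 11.2% and 11.6% at rounds 1, 2 and 3. Against the reference only ZBTB7A at round 1 was called; this repressor of fetal globin had 0.09 and 0.13 at round 0, -0.41 and -0.75 at round 1, -0.32 and -0.36 at round 2, and 0.10 and -0.02 at round 3. ZBTB17 (MIZ1), a partner of MYC, had the lowest mean. Its RNAs of round 0 were 2.72 and -0.48, apart by more than any difference between its rounds, and its amplified means of -0.89, -1.34 and -1.48 were not called. The highest mean belonged to ZBTB2 clone 1 (0.10, 0.86, 0.78 and 1.49), whose RNAs of round 1 were -0.79 and 2.50.

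Among the 10 KLF features, 2 were called lower at each round (20%, beside 7.87%, 6.79% and 7.04% of all tested features) and 0 higher. KLF2, the flow-responsive factor of endothelium, was high in unamplified RNA through its clone 2, at 1.31 and 1.18. It lay near 0 afterwards, at -0.30 and -0.07, -0.15 and -0.00, and 0.10 and 0.03. These amplified means were 0.27, 0.35 and 0.38 with kidney in Cy5 and -0.64, -0.50 and -0.25 with kidney in Cy3. The differences were -1.43, -1.32 and -1.18 ± 0.20 (adjusted p = 0.0131, 0.017 and 0.022), and without a single RNA of round 0 that of round 1 had an adjusted p of up to 0.063. Its clone 3 had -0.17 at round 0 and no called difference (-0.29, 0.26 and 0.49). KLF4 was lower than round 0 at rounds 1 and 2 (-0.91 and -1.04 ± 0.22, adjusted p = 0.0461 and 0.0378) and not called at round 3 (-0.80, 0.0695). Its calls at rounds 1 and 2 were kept in 3 and 5 of 19 alternatives.

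KLF10, an early target of TGF-beta, fell late. Its ratios were -0.34 and -0.36 at round 0, -0.36 and -0.35 at round 1, -0.90 and -0.93 at round 2, and -1.33 and -1.36 at round 3, and round 3 differed by -1.0 ± 0.18 (adjusted p = 0.0258). Its replicates agree to within an SD of 0.013 on average, whereas its dye orientations do not: at round 1 the mean was 0.18 with kidney in Cy5 and -0.89 with kidney in Cy3. KLF6, an injury-induced factor, was followed by 3 clones that were not called against round 0; clone 3 was called below the reference at round 3 (-1.70 and -1.03), and clone 2 at round 0, where its RNAs were -0.48 and -3.05. The glucocorticoid-responsive KLF9 and KLF15 and the immune regulator KLF13 were called at no round, with KLF13 at 3.42 and 0.40 at round 3.

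SOX6, a SoxD factor of cartilage and red cell formation that lacks an activation domain of its own, had the largest decrease. It went from 1.74 and 2.72 at round 0 to -1.16 and 0.14 at round 1, -1.15 and -0.53 at round 2, and 0.66 and -0.73 at round 3. No amplified RNA reached those of round 0, and the differences were -2.74 ± 0.65 (adjusted p = 0.0434), -3.07 ± 0.65 (0.0356) and -2.27 ± 0.65 (0.0713). Only 25 of its 32 spots had a ratio, and at round 1 its mean was -2.37 with kidney in Cy5 and 1.35 with kidney in Cy3. From the first duplicate spot only, the difference at round 1 was -0.14 (adjusted p = 0.966), and with kidney in Cy3 only it was -1.21 (0.447). The call at round 1 was kept in 5 of 18 alternatives and that at round 2 in 7 of 18. SOX4, a factor of progenitor cells, was called below the reference at round 0 (-0.46 and -1.43). Both of these values come from arrays with kidney in Cy3 only. Later means of SOX4 were -0.53, -0.14 and -0.063. SOX15 ranged from -3.03 to 0.38 between the RNAs of round 0 and was not called.

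GATA6, a factor of endoderm and heart, rose through its clone 2. That feature had -0.89 and -1.22 at round 0, 0.54 and 2.02 at round 1, 1.31 and 0.76 at round 2, and 1.05 and 0.29 at round 3, with all 6 amplified RNAs above round 0 in the mean of the available orientations. Only round 1 passed (2.34 ± 0.53, adjusted p = 0.0394; 0.0555 and 0.0821 at rounds 2 and 3), and 22 of its 32 spots had a ratio. Of the 6 amplified RNAs, 3 had a value with kidney in Cy3 only. The other 3 gave -0.16, 0.83 and -2.50 with kidney in Cy5 (rounds 1, 2 and 3), against -1.82 and -0.59 at round 0, so that in this orientation amplified and unamplified RNAs overlapped. The call at round 1 was kept in 3 of 18 alternatives, and from the first duplicate spot only the difference was 1.37 (adjusted p = 0.335). Clone 1 of GATA6 had 0.01 and 2.27 at round 0 and -1.46 and -1.70 at round 2, where it was called below the reference. GATA2 clone 3 was lower at round 1 than at round 0 (-1.23 ± 0.28, adjusted p = 0.0402), with -0.90 and -0.68 against -2.06 and -1.97.

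Forkhead features gave 0 calls of 5 against round 0 at rounds 1, 2 and 3, beside 13.3%, 11.2% and 11.6% of all tested features. FOXO3, a target of insulin signalling and a stress factor, had the highest mean. It stood at 1.44 and 1.26, 0.78 and 1.73, 1.17 and -1.31, and 1.91 and 1.83, and was called above the reference at round 3 alone. There, replicate 1 had 3.06 with kidney in Cy3 and 0.77 with kidney in Cy5, and replicate K had a Cy3 value only. Of the 32 spots of FOXO3, 24 had a ratio. FOXJ2 was also called above the reference at round 3 (1.43 and 0.93), and FOXO4 was not called at any round (0.52, 0.55, -0.25 and 0.82).

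The 5 features under NR symbols had 0 calls against round 0 at rounds 1, 2 and 3, beside 13.3%, 11.2% and 11.6% of all tested features. NR3C1, the glucocorticoid receptor, had 0.45 and 0.70, 0.56 and 1.66, 0.12 and -0.48, and -1.36 and 2.16. Its RNAs of round 2 lay below those of rounds 0 and 1, and its RNAs of round 3 spanned those of all other rounds. NR4A1, an orphan receptor induced as an immediate early gene, had means of -0.78, 0.74, 0.29 and 0.39. NR4A2, its relative, was called below the reference at round 0 with -1.51 and -5.48, both from arrays with kidney in Cy3 only. Only 15 of its 32 spots had a ratio, the fewest of all 79 features.

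Of the SMAD proteins, SMAD1, which carries BMP signals, was called against round 0 at round 3 alone. SMAD6, an inhibitor of the same pathway, was not called. SMAD1 had 0.40 and 0.43 at round 0, 0.52 and 0.15 at round 1, -0.59 and -0.24 at round 2, and -0.82 and -0.47 at round 3. It was 1.06 ± 0.25 lower at round 3 than at round 0 (adjusted p = 0.0446), and the first 2 sets of RNAs overlapped. The call was kept in 2 of 19 alternatives, and leaving out 1 RNA gave differences from -1.23 to -0.89. SMAD6 had means of -0.45, -0.36, -0.21 and -0.17. In a list of 13 receptor, ligand and corepressor features of the TGF-beta and BMP pathways, 1, 1 and 1 were called against round 0. They were TGIF1, a homeobox corepressor of SMADs, higher at round 1 (1.59, adjusted p = 0.0438), and clone 2 of the activin receptor ACVR2A, lower at rounds 2 and 3 (-1.43 and -1.68). These counts are 7.69% at each round, beside 13.3%, 11.2% and 11.6% of all tested features. TGFBR2, the type II TGF-beta receptor, was above the reference at all rounds by its clone 1 (2.54, 2.30, 1.93 and 1.98) and below it at rounds 1, 2 and 3 by clone 2 (-0.89, -1.30 and -1.60).

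STAT3, which relays IL-6 type cytokines, had -0.14 and 0.35, -0.56 and -0.24, 0.03 and -0.68, and -0.39 and -0.80, with no call in any comparison. Of 17 features of its receptors, kinases and inhibitors, 1 was higher and 1 lower than round 0 at round 1, 3 were lower at round 2 and 2 at round 3. That is 11.8%, 17.6% and 11.8%, beside 13.3%, 11.2% and 11.6% of all tested features. LIFR, the receptor of leukemia inhibitory factor upstream of STAT3, fell from 2.70 at round 0 to 0.34 at round 1 (-2.37 ± 0.22, adjusted p = 0.00629) and was 0.56 and 0.80 at rounds 2 and 3. The kinase JAK1 was higher at round 1 alone (1.54 ± 0.24, adjusted p = 0.0167), and SOCS1, an inhibitor of JAK kinases, was lower at rounds 2 and 3 (-1.39 and -1.42).

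TEAD factors, the DNA-binding partners of the Hippo coactivators YAP1 and WWTR1, gave 0 calls of 3 against round 0. Over all tested features the share was 13.3%, 11.2% and 11.6% at rounds 1, 2 and 3. TEAD3 had -0.64 and -0.07 at round 0 and between 0.25 and 0.59 in the 6 amplified RNAs (differences of 0.87, 0.76 and 0.77, adjusted p = 0.083, 0.119 and 0.107). TEAD4, known from trophectoderm, stood at -0.35, -0.19, 0.053 and 0.28. From round 0 to round 1, TEAD4 went from -0.33 to -0.68 with kidney in Cy3 and from -0.36 to 0.30 with kidney in Cy5. TEAD2 was called above the reference at round 1 alone (0.99 and 1.06). In the list of 6 Hippo features, WWTR1 (TAZ) was above the reference at every round (4.46, 3.11, 3.20 and 2.44) and lower at round 3 than at round 0 (-2.02, adjusted p = 0.0396). The kinase LATS2 was higher at round 1 (1.64, adjusted p = 0.0312), and CCN2, a target of YAP1 and TEAD, was below the reference throughout (-1.94, -2.68, -2.76 and -2.41).

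TFAP2A, a factor of ectoderm and neural crest, was tested by its clone 1. That feature had 0.90 and 1.54 at round 0, 1.31 and 0.68 at round 1, -0.68 and 0.38 at round 2, and -0.04 and 0.14 at round 3. It was called above the reference at rounds 0 and 1 and lay below those RNAs at rounds 2 and 3, where the differences of -1.37 and -1.17 did not pass (adjusted p = 0.0919 and 0.123). Clone 2 of TFAP2A, clone 1 of KLF2 and ZNF274 lacked a value in replicate K of round 0 and were not tested.

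Between amplified rounds none of the 79 features was called: rounds 1 and 2, 1 and 3, and 2 and 3 gave 0 calls each by limma, with 11, 18 and 3 at an unadjusted p under 0.05. Over all 5537 tested features these comparisons called 0%, 0.289% and 0%, with 569, 1176 and 401 at an unadjusted p under 0.05. The smallest p-values from round 1 to 3 were those of ZNF350 (-1.95 ± 0.28, adjusted p = 0.059) and ZNF207 (-1.99 ± 0.30, adjusted p = 0.0596), which also led from round 1 to 2 (-1.54 and -1.48, adjusted p = 0.295 and 0.323). GATA2 clone 1 followed there with a difference of 0.70 ± 0.21 (adjusted p = 0.366). From round 2 to 3 the smallest were those of ZNF692 (-1.01 ± 0.30, adjusted p = 0.653), of the feature under several gene IDs described above (-0.59 ± 0.23, 0.687) and of FOXO3 (1.94 ± 0.77, 0.687). Leaving out 1 RNA moved ZNF692 to -0.59 (without round 3 replicate 1) and FOXO3 to 0.70 (without round 2 replicate K) or 3.18 (without round 2 replicate 1). The value of FOXO3 in replicate K of round 2 comes from its Cy5 array only, and that of round 3 from its Cy3 array only.

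Clones of a gene did not always follow each other. Of the 61 tested genes, 13 had at least 2 tested clones. At rounds 1, 2 and 3, 5, 3 and 3 of these had some but not all clones called against round 0, 0 had all clones called, and 0 had clones called in opposite directions. GATA2 was the 1 gene with clones called on opposite sides of the reference, and it was so at all 4 rounds: its clones 1 to 4 had means over rounds that spanned 3.81. ZNF281 came next with 1.81 (clone 2 stayed at 0.38, 0.33, 0.26 and 0.46), then FOXK2 with 1.26, ZNF414 with 1.07 and ZBTB21 with 0.77. Clones lay closest for ZNF786 (0.063), KLF6 (0.28) and KLF2 (0.32). For KLF2 and KLF6 this closeness is one of means over rounds. The clones of KLF2 differed by over 1 at round 0. For KLF6, clone 2 had -1.77 at round 0, where clones 1 and 3 had -0.21 and -0.13. At round 3 it had 0.12, where they had -0.94 and -1.36.

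**Figure D4:**
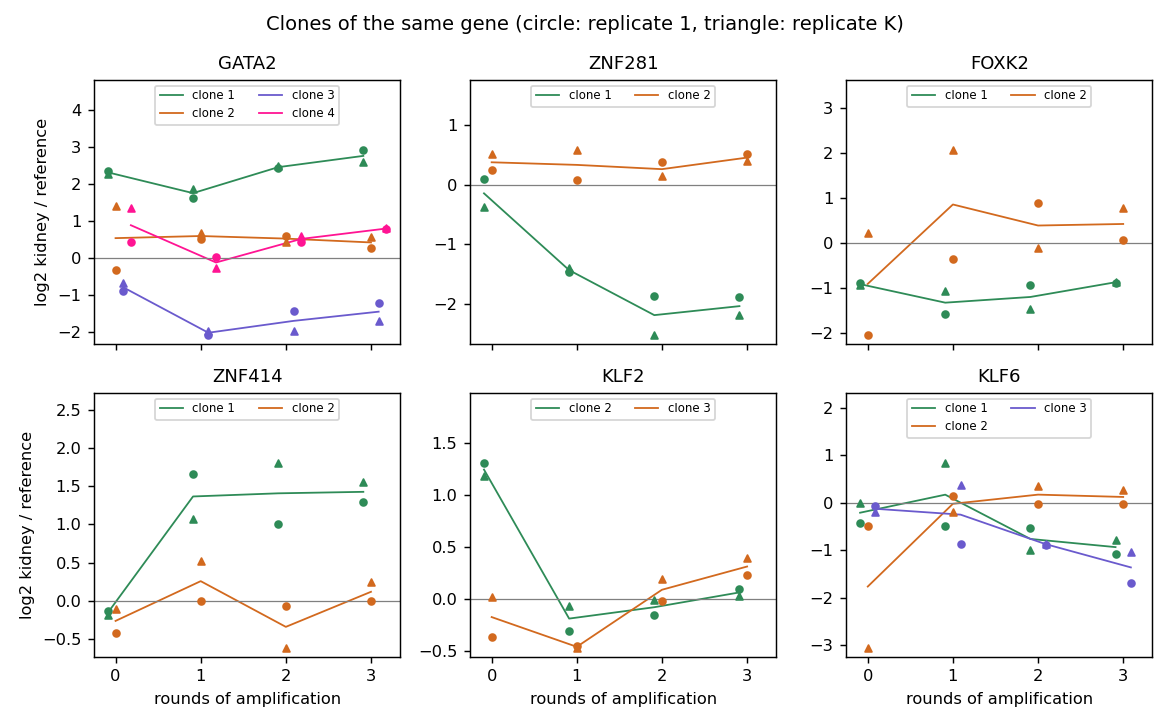
Log2 ratio of kidney over reference (vertical axis, scaled per panel) against rounds of amplification for the tested clones of 6 genes; points are RNAs and lines means, and clones are shifted sideways for legibility. Clone 1 of GATA2 lies above 0 and clone 3 below 0 in all 8 RNAs, and clone 1 of ZNF281 leaves clone 2 after round 0.

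The spread between replicates differed with the number of spots behind a feature. Each feature has 32 spots in all, and all of them had a ratio in 30 of 79 features (38.0%), against 51.6% of all tested features. The mean SD between replicates had a median of 0.21 in those 30 and of 0.58 in the other 49. Over all tested features these medians were 0.20 and 0.41. Values equal to the ratio of 2 whole numbers up to 10 made up 13.1% of values here and 8.91% over all features. Calls against round 0 came to 6, 5 and 8 of the 30 and 4, 3 and 3 of the 49. The same split of calls was not counted over all tested features, so whether it is particular to these families was not tested. The dye orientations of a feature lay a median of 0.35, 0.78, 0.53 and 0.52 apart at rounds 0 to 3, by over 1 in 25 of 74 features at round 1.

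**Figure D5:**
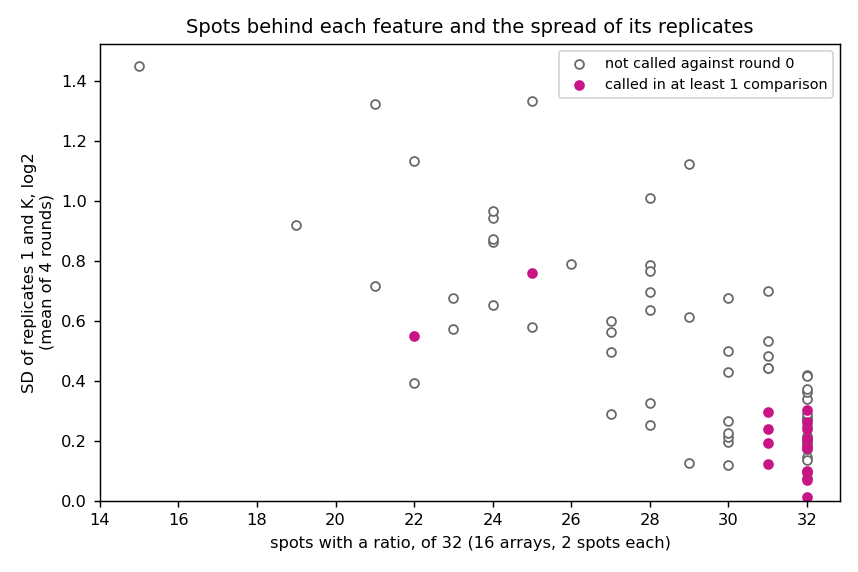
Mean SD between replicates 1 and K over the 4 rounds (vertical axis, log2 units) against the number of 32 spots with a ratio (horizontal axis) for the 79 tested features; filled points were called against round 0 in at least 1 comparison. NR4A2 lies at the left with 15 spots, and the 16 called features have an SD of at most 0.76.

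Cofactors and other regulators were counted for comparison. Among 31 features of corepressors that zinc finger and other repressors recruit, 1, 0 and 2 were called against round 0: CTBP2 clone 2 higher at round 1 (1.04), SIN3B higher at round 3 (1.51) and CHD3 clone 1 lower at round 3 (-1.25). That is 3.23%, 0% and 6.45%, beside 13.3%, 11.2% and 11.6% of all tested features. Among 16 features of nuclear receptors under other names and their cofactors, 1, 0 and 1 were called, or 6.25%, 0% and 6.25%. The chaperone HSP90AA1, which holds steroid receptors ready for ligand, was higher at round 1 (1.80, adjusted p = 0.00756) and was lower at round 3 than at round 1 (-2.51, adjusted p = 0.0145, a call lost under each of the 8 omissions). NSD1 clone 2, a histone methyltransferase that binds nuclear receptors, was lower at round 3 (-2.42, adjusted p = 0.0351).

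Zinc finger factors outside these symbols gave 2, 2 and 0 calls of 11, or 18.2%, 18.2% and 0%. EGR1, an immediate early gene, was lower at rounds 1 and 2 (-1.38 and -1.17), and the lymphoid factor IKZF3 was higher at round 1 by its clone 1 (1.72) and lower at round 2 by its clone 2 (-4.18). Factors of other classes, such as bZIP, bHLH, ETS and homeobox proteins, gave 12, 11 and 15 calls of 82 features (8 higher and 4 lower, 5 and 6, 6 and 9), or 14.6%, 13.4% and 18.3% beside 13.3%, 11.2% and 11.6% of all tested features. Their largest increases were those of HES1, the Notch target, at round 3 (2.65) and TBX3 clone 1 at round 1 (2.58, and 1.71 without round 0 replicate K). Their largest decreases were those of FOSB, of the AP-1 family, at round 1 (-3.41) and EPAS1 clone 1, the hypoxia factor of endothelium, at round 3 (-2.85).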

How the data were processed

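Genes were chosen by symbol, and the lists of partner genes and markers were set with earlier results of these data known. The values that the authors deposited for 15 arrays are log2 ratios of the channels. The deposited column of the round 1, replicate 1, Cy3 array also holds 52 numbers outside their range and is treated as a score column, whose remaining numbers were read as log2 ratios like the others. The code 16.61 and every number beyond 10 were set missing. For scanner, background correction and normalization by the authors the sources used here name nothing, and without intensities no filter on dim spots was made.

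Duplicate spots were averaged, arrays with kidney in Cy3 were turned, array medians over listed features were set to 0, and the 2 arrays of an RNA were averaged (RNAs were the replicates). Gene names come from the platform annotation; of 62 gene IDs, 60 were found in a current list of genes, all under the same symbol. Round means were fitted with limma 3.58.1 in R 4.3.3 (lmFit and eBayes, data.table version 1.17.8, 4 residual and 2.4 prior degrees of freedom) over all 5537 features with a value in all 8 RNAs, with Benjamini-Hochberg adjustment over them and a threshold of 0.05. A test against the reference leaves out the spread of the reference. The procedure was tested on simulated data. No exact test with 2 against 2 RNAs can pass 0.05. Comparisons with round 0 share its RNAs, and all ratios share the reference. Figures used matplotlib.

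Replicate numbers were not shown to pair RNAs across rounds: residuals correlated above 0.1 in 1 of 6 pairs of rounds (-0.046 to 0.17). Named features are those called against round 0 without overlap, those called above, or below, the reference throughout, the highest and lowest mean of each family, the 3 smallest p-values between amplified rounds, the genes whose clones differ most and least, and up to 2 called changes each way per partner list. ZNF, ZBTB and KLF genes named beyond this rule were chosen after their values were seen. Precision is limited by the number of arrays; the share of spots with a ratio stands for depth. Alternatives are given in the closing section. Sequences and genome positions were not used here.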

Additional observations from a re-analysis of the deposited data

How the results depend on the processing

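Counts of called features moved with the setting, named values kept their sign. Of 1099 alternative values of 58 named results under 20 settings, 803 stayed on the same side of the threshold, 294 fell short of it, 2 newly passed and 0 changed sign. Counts below are those against round 0 at rounds 1, 2 and 3 (10, 8 and 11 as reported) and, after "F", of the F test (8). Without centring they were 29, 0 and 3, F 3; in fits of only the rounds compared 0, 0 and 3; with kidney in Cy5 only 4, 3 and 6, F 3; with kidney in Cy3 only F 5; from the first duplicate spot only 2, 4 and 5, F 1; without the round 1, replicate 1, Cy3 array 3, 6 and 6, F 1. With all features tested, an alternative chosen after seeing the data, they were 5, 8 and 7, F 4. With the replicate block they were 6, 7 and 8, F 3, although nothing shows that the numbers are paired. Leaving out 1 RNA in turn gave 1 to 6, 0 to 9, 1 to 9, and F 0 to 1.

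Against the reference at rounds 0 to 3 (20, 21, 14 and 21), leaving out 1 RNA gave 10 to 21, 12 to 20, 8 to 16 and 10 to 20. Round 0 gave 12 from the first duplicate spot only and 12 with both duplicate spots on all 16 arrays; round 1 gave 12 without centring. The replicate block gave 21, 19, 15 and 17. Uncentred, the median of all features lay at 0.65, -0.30, 0.59 and 0.32. From round 1 to 3, 6 features were called where both duplicate spots were required (30 features) and 1 without ratios of small whole numbers, a setting chosen after seeing the data. The number of RNAs (2 per round), an unstated ratio direction and the lack of intensities limit these results.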
